A study of Mus musculus with 12 samples.

Results

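The genes of the mouse mitochondrial genome were examined in prostate RNA: 13 protein genes, 2 ribosomal RNA genes and 22 transfer RNA genes, 37 of the 39179 genes in the deposited matrix. Members were chosen by symbol alone (every Ensembl identifier that maps to a symbol starting with mt-), without use of any measured value. The matrix held 12 poly-A selected RNA-seq libraries of whole prostate from mice aged 4 months whose strain is given as a hybrid of 129/SvImJ and C57Bl/6J. Of these, 6 came from mice null for the gene under study and 6 from wild-type mice, and all 12 libraries are labelled as treated with paraquat, a herbicide that cycles electrons and generates superoxide. No untreated library was used here, so every difference below is null against wild type under paraquat. The labels do not name the null allele, and they do not say whether a library is 1 mouse, a pool or a repeat. The study's title places the protein of this gene at mitochondria, and the comparison asks how the mitochondrial transcripts stand when that gene is missing.

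Mitochondrial DNA is a small circle whose strands are both copied from end to end into long precursor RNAs, which are then cut apart, largely at the transfer RNAs that lie between the other genes. The heavy-strand transcript carries most genes, and the light-strand transcript carries mt-Nd6 and a minority of the transfer RNAs. The proteins are core subunits of the respiratory chain and of ATP synthase, and the ribosomal and transfer RNAs serve the mitochondrion's own translation. Most mature messengers carry short poly-A tails, the ribosomal RNAs shorter ones, and mature transfer RNAs none, so poly-A selection bears on each class differently. It may also bear differently on genes of the same class. Nuclear chromosomes also hold old insertions of mitochondrial DNA, and reads of 100 bases from an identical stretch cannot be placed in 1 location.

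The deposited values are on a log2 scale, with a floor above 0 for genes with few or no reads: the 18491 genes whose mean was under 2.5 had a median of 1.98, and 95% of their values lay under 2.92. Depth recovered from the steps between values was 14840000 to 21720000 reads a library, with similar ranges in null and wild type. The 12 libraries fell into 4 sets of 3 near-identical libraries, null 1 to 3, null 4 to 6, wild type 1 to 3 and wild type 4 to 6. The median gene differed by 0.0776 to 0.141 log2 units within a set and by 0.274 to 0.352 between the sets of a genotype. A fit that takes 12 libraries as replicates therefore measures spread that may be technical, and a second fit was made on the 4 set means. The word called is used for an adjusted p under 0.05 in limma with Benjamini-Hochberg adjustment over the 16197 genes with at least 4 in 6 or more libraries. A list of 5 prostate secretory markers (Pbsn, Msmb, Sbp, Tgm4 and Spink1) made up 1.09 to 1.17% of the library total in null and 7.70 to 10.1% in wild type. A list of 8 seminal vesicle markers made up 16.2 to 16.4% in null 1 to 3, 0.716 to 0.728% in null 4 to 6 and at most 0.00115% in wild type. These sums cover the listed markers alone, not all transcripts of either tissue. The part of this tissue makeup in the mitochondrial values below was not tested, and in bulk tissue fewer cells of a type and less RNA per cell cannot be told apart.

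Only 10 of the 37 genes passed the filter, and they are 7 protein genes, both ribosomal RNA genes and mt-Tp, the gene of proline transfer RNA. By strand, 8 of the 10 lie on the heavy-strand transcript, which holds 28 members, and 2 (mt-Nd6 and mt-Tp) lie on the light-strand transcript, which holds 9. The other 27 members, 6 protein genes and 21 transfer RNA genes, were listed at or near the floor in both genotypes. The sources used here do not give how the authors treated reads that match several places, or whether counting used strand, so a value near the floor cannot be read as low expression.

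**Figure D1:**
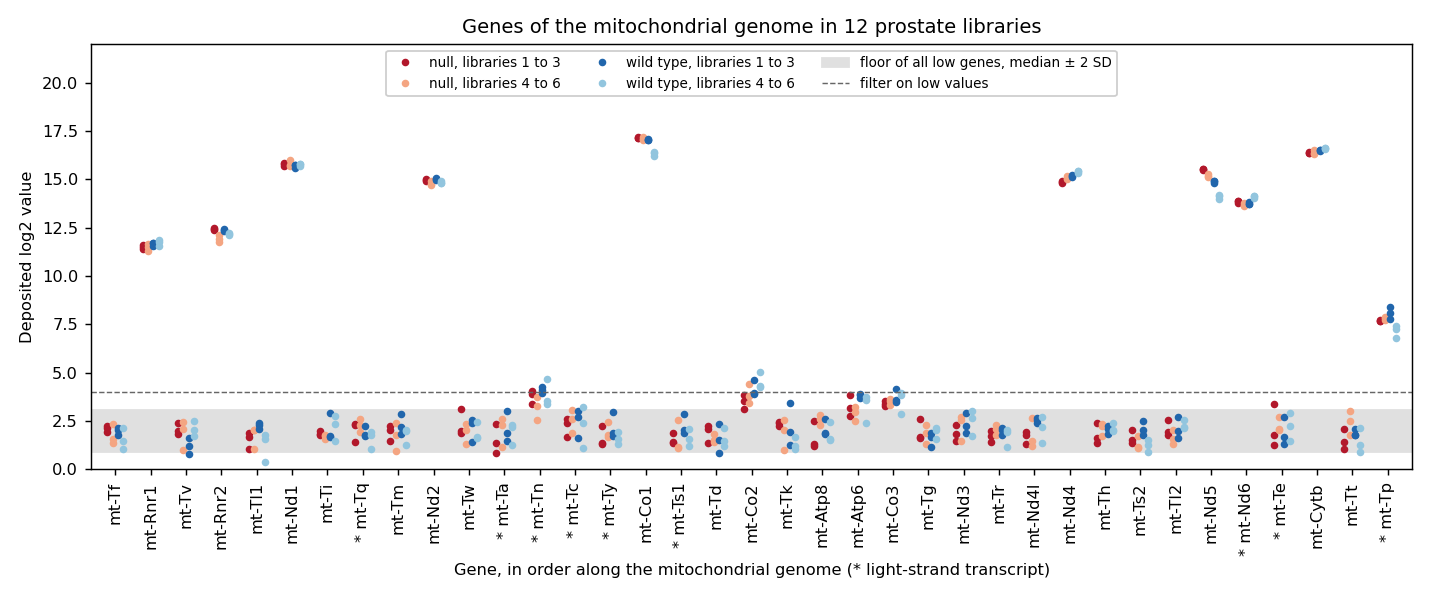
Deposited log2 value of each of the 37 genes in their order along the mitochondrial genome, with a point for each library coloured by genotype and set, null left of wild type, a grey band for the floor (median ± 2 SD of all low genes) and a dashed line at the filter value of 4. Between mt-Co1 and mt-Nd4, the 6 protein genes mt-Co2, mt-Atp8, mt-Atp6, mt-Co3, mt-Nd3 and mt-Nd4l all lie between 1.21 and 5.06, while the 7 other protein genes lie above 13.

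The 6 protein genes near the floor are neighbours. They run without another protein gene between them from chrM:7013 to 10173 (GRCm38, plus strand), 3161 bases in all, and over them the 72 values had a median of 2.80. mt-Co2, whose protein takes electrons from cytochrome c in complex IV, had the highest of these values, 3.15 to 4.43 with a median of 3.67 in null and 3.89 to 5.06 with a median of 4.30 in wild type. It reached 4 in 5 libraries, 1 short of the filter. mt-Co3, another complex IV subunit, was listed at 3.28 to 3.66 in null and 2.84 to 4.16 in wild type. mt-Atp6, which forms part of the proton path of ATP synthase, was listed at 3.85 at most in null, with a median of 3.07, and at 3.91 at most in wild type, with a median of 3.72. The small genes mt-Atp8, mt-Nd3 and mt-Nd4l, the first for ATP synthase and the others for complex I, had medians, in that order, of 2.42, 2.08 and 1.61 in null and 1.86, 2.45 and 2.47 in wild type. All of these ranges overlap between genotypes. mt-Co2 lay over 2.92, the upper limit of the floor, in 12 libraries, mt-Co3 in 11 and mt-Atp6 in 9, while mt-Nd3 did so in 1 and mt-Atp8 and mt-Nd4l in 0.

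The GENCODE M21 annotation lists 7 pseudogenes side by side on chromosome 1, at chr1:24611535-24616197 on the minus strand, that copy the stretch of the mitochondrial genome on which these genes lie. In the order of the mitochondrial genes they are Gm29216 (bases 1063 to 1545 of mt-Co1, 99.8% identical), Gm28661 (mt-Co2, 681 bases, 100%), Gm10925 (mt-Atp6, 678 bases, 100%), Gm28437 (mt-Co3, 783 bases, 100%), Gm28438 (mt-Nd3, 345 bases, 99.7%), Gm10222 (mt-Nd4l, 294 bases, 100%) and Gm28439 (the first 876 bases of mt-Nd4, 100%). Gm29216, Gm28438 and Gm10222 are shorter than the rule for named copies allows and are named because they lie in the same row. mt-Atp8 has no annotated copy, but 161 of its 204 bases correspond to the unannotated gap of 233 bases between Gm10925 and Gm28661, and the matching stretch of mitochondrial DNA between the same ends is also 233 bases long. The genome sequence of that gap was not used here. Of the 7 pseudogenes only Gm10222 was among the genes analysed, at 4.38 to 5.14 in null and 4.17 to 5.52 in wild type, both above its mitochondrial parent mt-Nd4l, listed at 1.21 to 2.66 in null and 1.35 to 2.70 in wild type.

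The next 60-base stretches show what a read can and cannot tell apart, from the GENCODE M21 transcripts of GRCm38, each from the middle of a copied stretch and read 5′ to 3′ in the sense of the mitochondrial gene, with capitals at bases that differ from it and positions counted from 1 at the first base shown. In mt-Co2 the mitochondrial stretch and both nuclear copies are letter for letter the same. In mt-Nd5, which stays well above the floor, the closest copies each differ by a single base, G43A in Gm4076 and C7T in Gm11407. In mt-Cytb the copy differs at T22C, C25T, G28A and C49T.
mt-Co2, chrM:7325-7384, plus strand: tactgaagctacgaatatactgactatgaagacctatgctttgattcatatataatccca
Gm28661, chr1:24615194-24615253, minus strand: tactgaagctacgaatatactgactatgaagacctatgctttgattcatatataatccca
Gm13341, chr2:22587591-22587650, minus strand: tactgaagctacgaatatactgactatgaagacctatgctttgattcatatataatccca
mt-Nd5, chrM:12915-12974, plus strand: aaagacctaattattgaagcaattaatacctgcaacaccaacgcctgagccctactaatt
Gm4076, chr13:85126987-85127046, minus strand: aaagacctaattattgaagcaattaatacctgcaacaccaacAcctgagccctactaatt
Gm11407, chr4:80002757-80002816, plus strand: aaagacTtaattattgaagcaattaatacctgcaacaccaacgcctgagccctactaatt
mt-Cytb, chrM:14687-14746, plus strand: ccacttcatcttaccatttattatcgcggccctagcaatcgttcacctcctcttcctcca
Gm11410, chr4:80004531-80004590, plus strand: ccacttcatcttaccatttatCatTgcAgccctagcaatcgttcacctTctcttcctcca

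Each mitochondrial gene was then cut into every window of 100 bases, the read length in the labels, and each window was compared with the annotated nuclear transcripts. A copy within 2 mismatches was found for 99.5% of the windows of mt-Co2, 99.5% of mt-Atp6, 99.9% of mt-Co3, 98.8% of mt-Nd3 and 98.5% of mt-Nd4l. mt-Co1 and mt-Nd4, which border this stretch on either side, had copies for 71.1% and 60.8% of their windows. The share was 12% in mt-Nd2, 9.62% in mt-Nd5 and 1.90% in mt-Nd6, and 0 in mt-Nd1, mt-Cytb and both ribosomal RNA genes. Thus the 5 genes with nearly all windows copied were all listed near the floor. The protein and ribosomal RNA genes that passed the filter had 412 (mt-Nd6) or more windows free of a copy, a limit read off these same genes. With up to 5 mismatches allowed, 100% of the windows of mt-Co1 had a copy, although its mean was the highest of the members in each genotype. mt-Atp8 is the exception among the genes near the floor, with no copy in the annotated transcripts. Whether the copies set the listed levels was not tested.

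**Figure D2:**
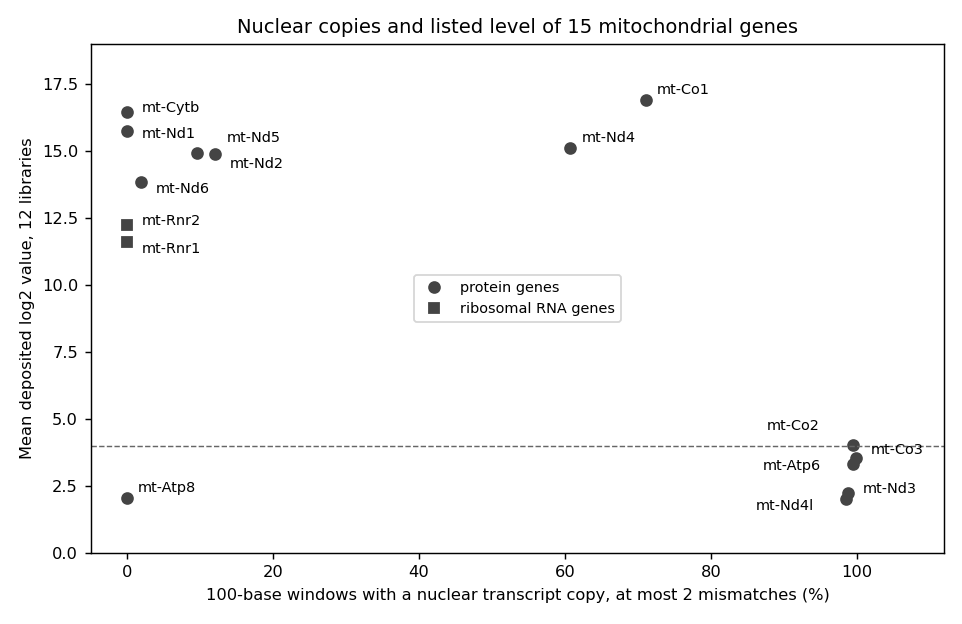
Mean deposited log2 value over 12 libraries (vertical axis) of the 13 protein and 2 ribosomal RNA genes against the percentage of their 100-base windows that match an annotated nuclear transcript with at most 2 mismatches (horizontal axis), with a dashed line at the filter value of 4. mt-Co2, mt-Atp6, mt-Co3, mt-Nd3 and mt-Nd4l stand at the lower right, at 98.5 to 99.9% copied, and mt-Atp8 stands alone at the lower left.

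Several copies that are not identical to their parent over their whole length have values listed. Stretches of such copies can still match the parent, as shown for Gm13341, so these values may hold reads of the mitochondrial gene. Gm13340 on chromosome 2, a full-length copy of mt-Co1 over 1545 bases at 97.6% identity, was listed at 6.25 to 6.69 in null and 6.29 to 6.68 in wild type, and the groups overlap. Its neighbour Gm13341, a copy of mt-Co2 at 95.9% identity, was listed at 3.54 to 4.36 in null and 4.35 to 5.06 in wild type, a difference of -0.71 that limma called over libraries (adjusted p = 0.004) and not over set means (adjusted p = 0.193). mt-Co2 and Gm13341 thus lay in nearly the same range in each genotype. The copies Gm13339 of mt-Nd2, Gm4076 and Gm11407 of mt-Nd5, Gm11408 of mt-Nd6, Gm11410 of mt-Cytb and Gm11512 of mt-Co1 all had means under 2.6 in both genotypes, at the floor.

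Of the 10 tested members, limma over 12 libraries called mt-Nd5 higher in null and mt-Nd4 and mt-Rnr1 lower in null. Among all tested genes the same fit called 34.1% higher and 31.8% lower, so 3 of 10 is below the 65.9% called in either direction. Over set means no member was called by limma, against 2.15% of all tested genes called higher, 1.93% called lower and 4.09% in either direction, and none had an unadjusted p under 0.05, and with the set as a random block only mt-Nd5 was called (adjusted p = 0.006; of all tested genes 14.1% were called higher and 31.2% in either direction). No member therefore passed both fits. The median difference of the 7 tested protein genes was -0.05 and that of all 10 tested members -0.07, beside 0.05 for all genes tested. These small differences depend on the scaling: with every library set to the same total, the median was 0.27 for the protein genes and 0.37 for all genes, and the differences of mt-Rnr1, mt-Rnr2, mt-Nd2, mt-Nd6 and mt-Cytb, negative as deposited, turned positive. In 9 of the 10, the library ranges of the genotypes overlap, and mt-Nd5 is the exception (higher without overlap, as were 21.5% of all tested genes, with 22.7% lower and 44.2% in either direction).

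mt-Nd5, a large proton-pumping subunit of complex I (ENSMUSG00000064367, chrM:11742-13565, plus strand), had a lowest, median and highest value of 15.13, 15.38 and 15.56 in null and 13.97, 14.51 and 14.93 in wild type. Every null library stood above every wild-type library. Recovered reads were 34022 to 57807 in null and 12000 to 33639 in wild type, so counting error is small beside these differences. The means were 15.36 ± 0.18 in null and 14.49 ± 0.44 in wild type (SD, n = 6 each), a difference of 0.87 (SE 0.19) with an adjusted p of 0.001 in limma over libraries. Between set means the same difference had an SE of 0.46 and an adjusted p of 0.237. The set means were 15.52 for null 1 to 3 and 15.21 for null 4 to 6, against 14.88 for wild type 1 to 3 and 14.10 for wild type 4 to 6. The pairings of a null with a wild-type set thus ran between 0.32 and 1.42, all in the same direction, while the wild-type sets themselves differed by 0.79. Without wild type 4 to 6 the difference was 0.48, still called (limma over libraries, adjusted p = 0.015).

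mt-Nd4, a related proton-pumping subunit that lies just before mt-Nd5 on the same strand (ENSMUSG00000064363, chrM:10167-11544), went the other way. Its lowest, median and highest values were 14.79, 14.96 and 15.18 in null and 15.10, 15.28 and 15.45 in wild type. The ranges overlap, with null library 5 above wild-type library 3. Means were 14.96 ± 0.14 in null and 15.29 ± 0.15 in wild type (SD, n = 6 each), a difference of -0.32 (SE 0.11) with an adjusted p of 0.019 in limma over libraries and 0.620 over set means. The call was lost without null 1 to 3 (-0.21) and without wild type 4 to 6 (-0.20), and with every library scaled to the same total the difference was -0.01.

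The other complex I genes showed smaller differences. mt-Nd1, near the site where the complex passes electrons to ubiquinone, averaged 15.80 ± 0.11 in null and 15.72 ± 0.08 in wild type (SD, n = 6 each), and its difference of 0.08 was not called (limma over libraries, adjusted p = 0.542). It was called with equal library totals (0.39, limma adjusted p = 0.008), with quantile normalization (0.31, 0.037) and with the length trend removed (0.46, 0.007). mt-Nd2, a proton-pumping subunit, averaged 14.88 ± 0.12 in null and 14.93 ± 0.10 in wild type, with a difference of -0.05 (limma, adjusted p = 0.658). With equal library totals its difference turned to 0.27 and was called higher in null (limma, adjusted p = 0.034). mt-Nd6, the sole protein gene of the light-strand transcript (ENSMUSG00000064368, chrM:13552-14070, minus strand), averaged 13.76 ± 0.10 in null and 13.94 ± 0.20 in wild type. Its difference of -0.18 was not called (limma, adjusted p = 0.126), and wild type 4 to 6, at 14.04 to 14.15, stood above all other libraries of either genotype.

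mt-Nd5 and mt-Nd6 meet tail to tail on opposite strands and share 14 bases, in capitals in the 40 bases printed at the 3′ end of each gene. Since strand is not stated, reads over this overlap cannot be told apart. The overlap is short beside the 1824 bases of mt-Nd5 and the 519 of mt-Nd6. Both strands are copied from end to end, however, so reads from the opposite strand over the rest of either gene could not be told apart either. Their part in the listed values was not tested.
mt-Nd5 end, chrM:13526-13565, plus strand: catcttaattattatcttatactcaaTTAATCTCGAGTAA
mt-Nd6 end, chrM:13552-13591, minus strand: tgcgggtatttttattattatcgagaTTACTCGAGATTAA

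mt-Co1, the catalytic subunit of complex IV in which oxygen is reduced (ENSMUSG00000064351, chrM:5328-6872, plus strand), had lowest, median and highest values of 17.02, 17.15 and 17.21 in null and 16.18, 16.74 and 17.08 in wild type. The 6 null libraries lay close together, and wild type 1 to 3 (17.04 to 17.08) lay among them, whereas wild type 4 to 6 (16.18 to 16.43) lay below. The difference of 0.44 was not called (limma, adjusted p = 0.077 over libraries and 0.730 over set means). Against null 1 to 3, wild type 1 to 3 differed by 0.11 and wild type 4 to 6 by 0.83. The wild-type sets differed between themselves by 0.72, so the spread inside wild type was larger than the mean difference between genotypes.

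mt-Cytb, the catalytic core of complex III and the only subunit of that complex made in mitochondria (ENSMUSG00000064370, chrM:14145-15288, plus strand), varied least among the tested members. It ran from 16.33 to 16.49 in null, with a median of 16.39, and from 16.46 to 16.63 in wild type, with a median of 16.54. The ranges touch only through null library 5. Means were 16.39 ± 0.06 in null and 16.55 ± 0.06 in wild type (SD, n = 6 each), and the difference of -0.16 was not called (limma, adjusted p = 0.298 over libraries and 0.885 over set means).

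Both ribosomal RNAs of the mitochondrial ribosome were measured well above the floor. mt-Rnr1, of the small subunit (ENSMUSG00000064337, chrM:70-1024), ran from 11.29 to 11.67 in null, with a median of 11.50, and from 11.56 to 11.87 in wild type, with a median of 11.71. Its means were 11.49 ± 0.14 in null and 11.70 ± 0.12 in wild type (SD, n = 6 each), a difference of -0.21 (SE 0.08; limma, adjusted p = 0.028 over libraries and 0.460 over set means). The call was lost when null library 1, null library 6, wild-type library 4 or wild-type library 5 was left out, and the difference was 0.11 with equal library totals. mt-Rnr2, of the large subunit (chrM:1094-2675), averaged 12.18 ± 0.28 in null and 12.28 ± 0.13 in wild type. Its null sets, at 12.42 for 1 to 3 and 11.94 for 4 to 6, lay on either side of wild type, and the difference of -0.10 was not called (limma, adjusted p = 0.490). Because poly-A selection removes RNAs with no or very short tails, these levels are not the abundance of the ribosomal RNAs in the tissue.

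Among the transfer RNA genes, 20 of 22 (all but mt-Tp and mt-Tn) lay at the floor, with values of 0.40 to 3.41, a median of 1.90 and 3.75% of values over 2.92. Of these 20, 14 lie on the heavy-strand transcript and the rest on the light-strand transcript, and gene means ran from 1.58 to 2.36. mt-Tn, the asparagine transfer RNA on the light-strand transcript, had a median of 3.55 in null and 4.03 in wild type and reached 4 in 4 libraries. mt-Tp, on the light-strand transcript, last of the members by position on the genome and next to the control region, was far above the rest. Its lowest, median and highest values were 7.70, 7.74 and 7.86 in null and 6.77, 7.58 and 8.38 in wild type. The null libraries lay close together and inside the wild-type range, whose sets stood at 8.09 for 1 to 3 and 7.14 for 4 to 6. The difference of 0.15 was not called (limma, adjusted p = 0.571). Its direction turned with the wild-type set left out: it was 0.62 without wild type 1 to 3 (limma, adjusted p = 0.002) and -0.33 without wild type 4 to 6 (adjusted p = 0.045). Its sequence is given because it is the only transfer RNA gene that passed the filter, with the anticodon for proline in capitals.
mt-Tp, chrM:15356-15422, minus strand, 67 bases: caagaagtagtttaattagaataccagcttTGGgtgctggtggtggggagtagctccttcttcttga

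**Figure D3:**
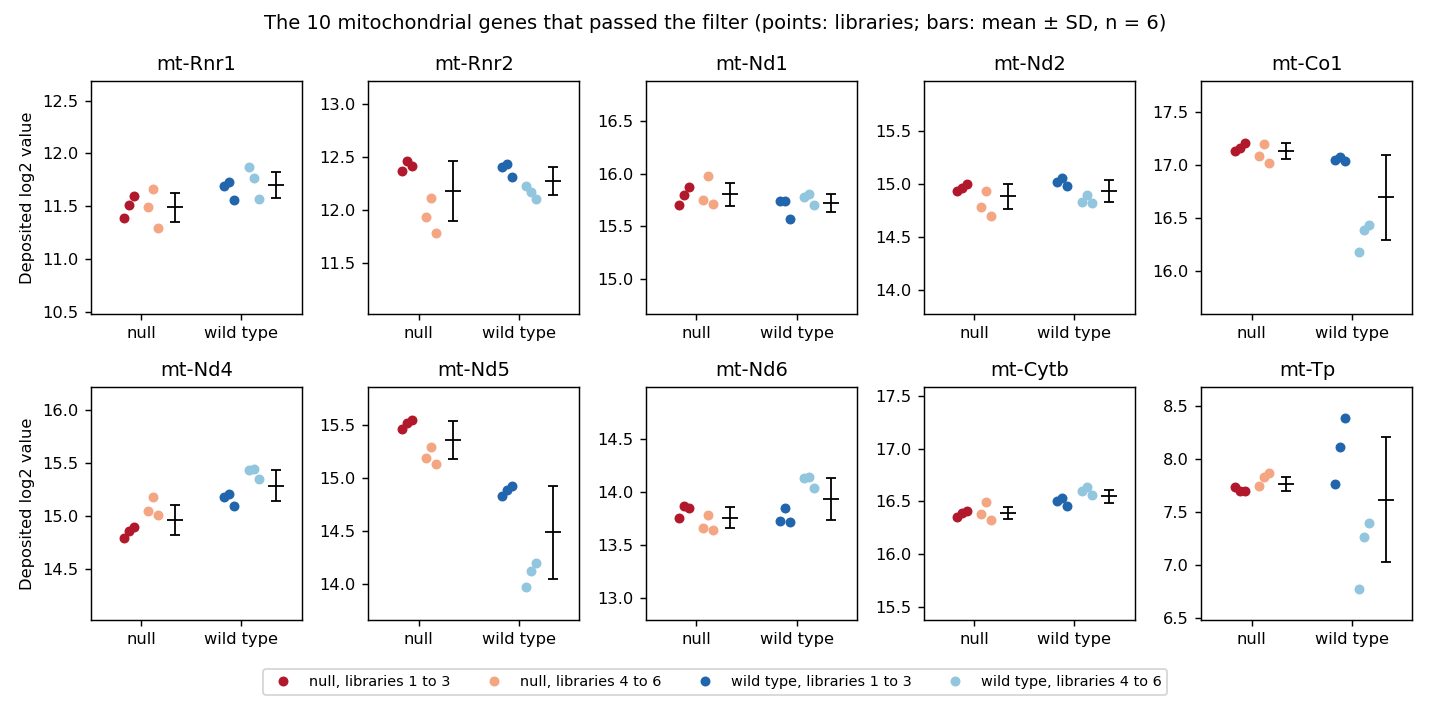
Deposited log2 values of the 10 tested members in each library, null left of wild type, with sets 1 to 3 and 4 to 6 marked apart and bars for the mean ± SD (n = 6). For mt-Nd5 no null point falls in the wild-type range, and the wild-type sets stand apart by 0.72 for mt-Co1, 0.79 for mt-Nd5 and 0.95 for mt-Tp, and by less, also without overlap, for mt-Nd2, mt-Nd4, mt-Nd6, mt-Rnr2 and mt-Cytb.

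Levels between genes can be compared only per length, and poly-A selection may still bear differently on each gene, mt-Nd6 included. As log2 values per kilobase, mt-Co1 stood at 16.51 in null and 16.07 in wild type, mt-Cytb at 16.20 in null and 16.35 in wild type, and mt-Nd1 at 15.87 in null and 15.79 in wild type. mt-Nd2, mt-Nd6 and mt-Nd4 followed, between 14.50 and 14.83 in null and between 14.83 and 14.88 in wild type. mt-Nd5 had the lowest mean of the 7 protein genes, at 14.49 in null and 13.62 in wild type. In null its mean nearly equals that of mt-Nd4 (14.50), but the null sets differ. Before correction for length, mt-Nd5 minus mt-Nd4 was 0.66 to 0.68 in null 1 to 3 and 0.12 to 0.14 in null 4 to 6. The order of these genes per kilobase in null therefore depends on the set. mt-Rnr1 stood at 11.56 per kilobase in null and 11.77 in wild type, and mt-Rnr2 at 11.52 in null and 11.61 in wild type. mt-Tp, at 67 bases, is shorter than a read of 100 bases, so a whole read counted there reaches beyond the gene. Its values per kilobase, 11.66 in null and 11.52 in wild type, are therefore not comparable with those of longer genes. Which RNA its reads came from was not tested. Where reads in copied windows were not counted, the usable length is shorter, and per 1000 windows free of a copy mt-Co1 would stand at 18.39 in null and 17.95 in wild type and mt-Nd4 at 15.96 in null and 16.28 in wild type. Which length applies was not tested.

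Differences between genes inside a library do not depend on how the libraries were scaled to each other. mt-Cytb, which has no copied window and the smallest spread, was taken as the comparison gene after its values were seen, and the following are log2 differences given as a description. mt-Nd5 minus mt-Cytb was -1.20 to -0.85 in null and -2.63 to -1.53 in wild type, without overlap. mt-Co1 minus mt-Cytb was 0.69 to 0.80 in null and -0.42 to 0.58 in wild type, also without overlap, and wild type 4 to 6 alone lay below 0. mt-Nd1 minus mt-Cytb was -0.65 to -0.51 in null and -0.88 to -0.77 in wild type, without overlap and with little spread in either genotype. On the deposited scale mt-Cytb itself differed by -0.16 and mt-Nd1 by 0.08, neither called, so part of this difference lies in mt-Cytb. The same shift of mt-Cytb enters every difference taken from it. For mt-Nd2, mt-Nd4, mt-Nd6, mt-Tp and both ribosomal RNAs the ranges overlap. For the neighbours mt-Nd5 and mt-Nd4, cut from the same precursor, mt-Nd5 minus mt-Nd4, not corrected for length, was 0.12 to 0.68 in null and -1.47 to -0.17 in wild type, without overlap. mt-Nd6 minus mt-Nd5, genes annotated on opposite strands, was -1.71 to -1.49 in null and -1.21 to 0.17 in wild type. Since strand is not stated, the values of both genes may hold reads from the opposite strand.

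**Figure D4:**
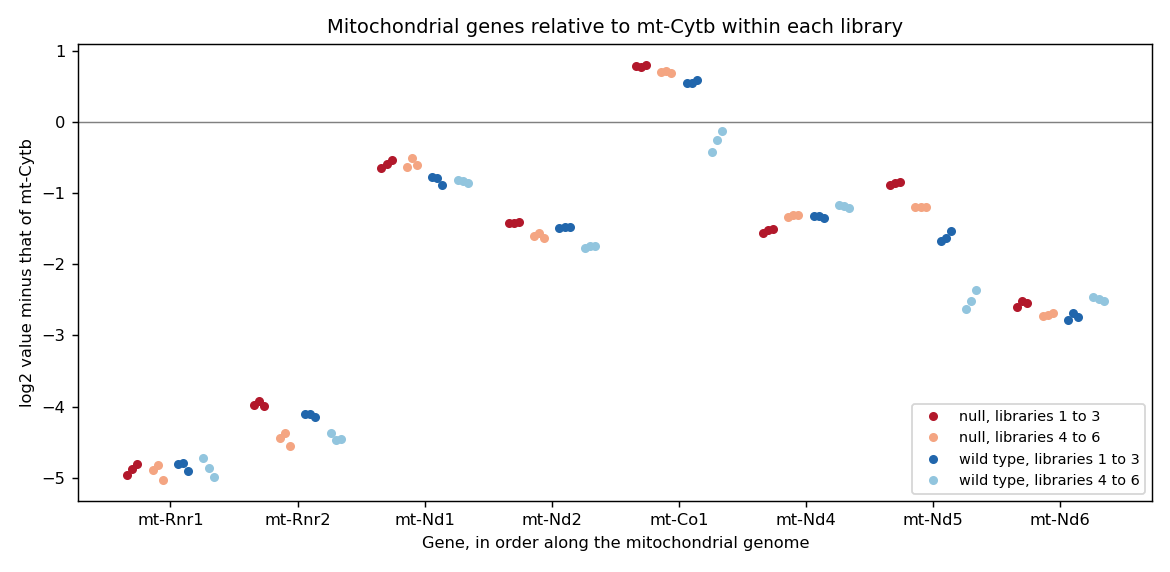
Log2 difference of 8 tested members from mt-Cytb within the same library, null left of wild type, with a point for each library (mt-Tp is not drawn). The null points of mt-Nd5, mt-Co1 and mt-Nd1 lie above all wild-type points, and the wild-type points of mt-Nd5 spread from -2.63 to -1.53.

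Gene length moved with genotype across the whole matrix. Among all tested genes, split into 5 groups of like size by transcript length, the median difference of null minus wild type was -0.37 where the median length was 963 bases and 0.49 where it was 6533 bases. Between the wild-type sets, libraries 4 to 6 minus libraries 1 to 3, the medians of these groups were 0.30 and -0.22. mt-Nd5 and mt-Co1, at 1824 and 1545 bases, are the longest tested protein members, and both were higher in null and lower in wild type 4 to 6. Yet both are shorter than the median tested gene (3090.5 bases). The groups of their own length had negative medians of null minus wild type, -0.16 for that of mt-Nd5 and -0.37 for that of mt-Co1. mt-Rnr2, at 1582 bases, differed by -0.10. With the trend over transcript length removed, mt-Nd5 was still called, mt-Co1 differed by 0.71 (limma, adjusted p = 0.027) and mt-Nd4 by -0.02. The part of RNA length in these differences was otherwise not tested.

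As a share of the library total (2 to the power of the value, summed), the 37 genes took 2.48 ± 0.12% in null and 1.84 ± 0.20% in wild type (SD, n = 6 each). The lowest and highest shares were 2.36 and 2.69% in null and 1.58 and 2.07% in wild type, so the groups do not overlap. The protein genes made up nearly all of it, 2.43 ± 0.12% in null and 1.79 ± 0.20% in wild type, and the ribosomal RNAs 0.045% in null and 0.040% in wild type. The totals themselves differ, at 16200000 to 17130000 units in null and 20040000 to 21890000 in wild type, and the 50 nuclear genes of highest mean log2 value took 8.61 to 15.9% of the total in null and 28.6 to 29.7% in wild type. With those 50 genes left out of the total, the mitochondrial share was 2.83 ± 0.20% in null and 2.59 ± 0.28% in wild type, and the ranges overlap. Leaving out instead the 50 nuclear genes of highest linear mean, a choice made after seeing the data that also removes abundant seminal vesicle transcripts of null 1 to 3, gave 3.12 ± 0.21% in null and 2.61 ± 0.29% in wild type, again with overlap. The summed mitochondrial values, on the authors' own scale, were 383014 to 438180 units in null and 346247 to 414235 in wild type, which also overlap.

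**Figure D5:**
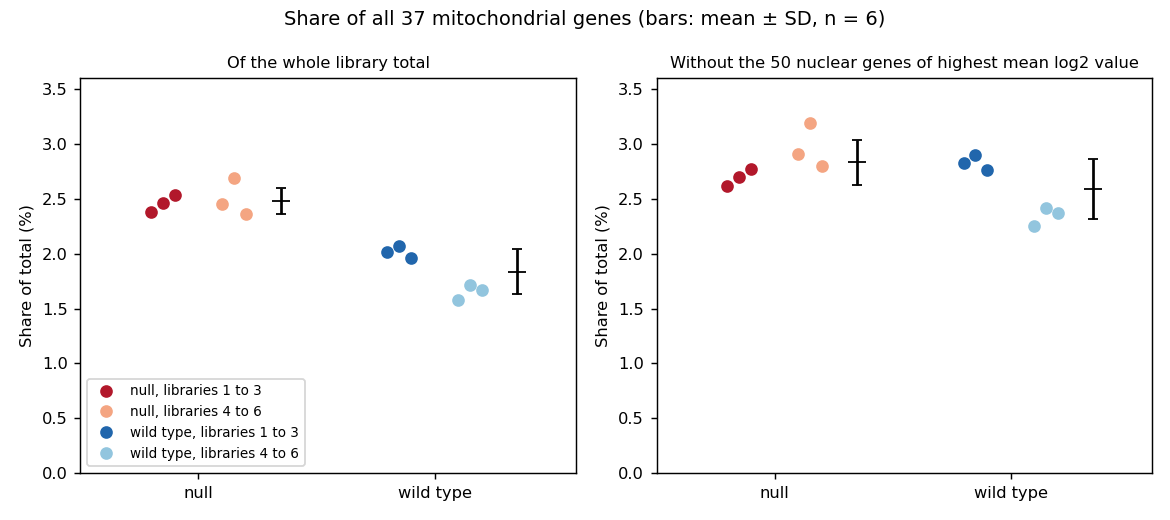
Share of the library total taken by the 37 mitochondrial genes in each library, with all genes in the total and with the 50 nuclear genes of highest mean log2 value left out, null left of wild type. With all genes in the total every null library (2.36 to 2.69%) lies above every wild-type library (1.58 to 2.07%), and with the 50 genes left out the ranges overlap.

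Within the mitochondrial total, the shares of mt-Co1, mt-Cytb and mt-Nd1 varied less in null than in wild type, where they differed by set. Not every measure did so. As log2 differences from mt-Cytb, mt-Rnr2, mt-Nd4 and mt-Nd1 had SDs, in that order, of 0.28, 0.12 and 0.05 in null. In wild type these SDs were 0.18, 0.08 and 0.04, while the other tested members spread less in null. mt-Co1 took 34.4 to 35.3% of it in null and 21.5 to 34.2% in wild type, with means of 34.8 ± 0.32% in null and 28.5 ± 5.77% in wild type (SD, n = 6 each). mt-Cytb took 20.0 to 21.4% in null and 22.8 to 28.7% in wild type, and mt-Nd1 took 13.1 to 14.7% in null and 12.4 to 16.3% in wild type. In wild type, the share of mt-Co1 was lower in each of libraries 4 to 6 than in each of libraries 1 to 3.

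The nuclear genes that copy, transcribe and process mitochondrial DNA and RNA were followed from 4 lists, and none of their 56 tested members was called by limma over set means (10 had an unadjusted p under 0.05, beside 31.1% of all tested genes, and with the set as a random block 10 were called, beside 31.2%). Over 12 libraries 8 were called higher and 23 lower, against 34.1% and 31.8% of all tested genes, and their median difference was -0.16. Among the replication genes, 1 of 11 was called higher and 3 lower. Polg, the mitochondrial DNA polymerase, averaged 9.63 ± 0.06 in null and 9.01 ± 0.36 in wild type, Ssbp1, which coats single-stranded mitochondrial DNA, 8.26 ± 0.07 in null and 8.70 ± 0.24 in wild type, and Tk2, the mitochondrial thymidine kinase, 10.12 ± 0.07 in null and 10.49 ± 0.09 in wild type (SD, n = 6 each).

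Among the transcription genes 1 of 11 was called higher and 4 lower over libraries, against 34.1% and 31.8% of all tested genes. Mrpl12, a ribosomal protein that also binds the mitochondrial RNA polymerase, averaged 8.65 ± 0.20 in null and 9.62 ± 0.26 in wild type, a difference of -0.97 (limma, adjusted p = 2.69e-05 over libraries and 0.080 over set means). Tfb1m, which methylates the small ribosomal RNA mt-Rnr1, averaged 7.08 ± 0.13 in null and 7.77 ± 0.18 in wild type. Mterf4, a factor of ribosome assembly, averaged 8.00 ± 0.20 in null and 8.38 ± 0.18 in wild type, with ranges that overlap. Of the RNA processing and stability genes, 3 of 26 were called higher and 14 lower. Lrpprc, which holds mitochondrial messengers stable, averaged 10.18 ± 0.07 in null and 9.56 ± 0.06 in wild type, a difference of 0.63 (limma, adjusted p = 5.73e-07 over libraries and 0.092 over set means). Fastk, whose mitochondrial form is needed for the mt-Nd6 messenger, averaged 10.21 ± 0.07 in null and 10.64 ± 0.05 in wild type. Grsf1, an RNA-binding protein of mitochondrial RNA granules, averaged 10.43 ± 0.05 in null and 10.84 ± 0.07 in wild type.

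Among the nuclear regulators of mitochondrial content 3 of 8 were called higher and 2 lower over libraries, against 34.1% and 31.8% of all tested genes. The coactivator Ppargc1a averaged 7.18 ± 0.21 in null and 6.24 ± 0.08 in wild type, and its relative Ppargc1b 5.54 ± 0.45 in null and 4.62 ± 0.08 in wild type. Each differed by 0.93, and neither pair of ranges overlaps. They were the only 2 of the 8 regulators without overlap, while 44.2% of all tested genes had none (21.5% higher in null). Esrra, a nuclear receptor they act with, averaged 9.59 ± 0.13 in null and 9.97 ± 0.21 in wild type, with overlap. With the set as a random block only Ppargc1a of these 3 was called (limma, adjusted p = 0.042), beside 14.1% of all tested genes called higher and 31.2% in either direction.

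Markers of several cell types and tissues were measured beside these values. Striated muscle markers took 0.0214 to 0.0231% of the total in null and 0.0172 to 0.0199% in wild type, without overlap. The totals themselves were lower in null, at 16200000 to 17130000 units against 20040000 to 21890000 in wild type, which bears on all these shares. Acta1, the highest of the striated muscle markers, was not higher in null as deposited, with means of 11.69 in null and 11.79 in wild type. Of the 4 striated muscle markers tested, 0 were called by limma over libraries (0 with an unadjusted p under 0.05, and 0 over set means). The null sets differed in these markers. Ckm stood at 8.67 in null 1 to 3 and 6.80 in null 4 to 6, and Myh1 at 5.71 and 4.33. Mylpf went the other way, at 5.46 and 6.39, and Acta1, the highest, stood at 11.66 and 11.72. Smooth muscle markers took 0.343 to 0.521% in null and 0.339 to 0.421% in wild type, with 3 of 5 called lower. Leukocyte markers took 0.00422 to 0.00663% in null and 0.00205 to 0.00299% in wild type, with 2 of 4 called higher. Of all tested genes the same fit called 34.1% higher and 31.8% lower, and over set means limma called 0 of the 5 smooth muscle markers (0 with an unadjusted p under 0.05, and 1 with the set as a random block) and 0 of the 4 leukocyte markers (2 in each case). The brown adipocyte markers Ucp1 and Cidea did not pass the filter. All 5 prostate secretory markers were called lower in null and all 7 tested seminal vesicle markers higher. The seminal vesicle share differed between the null sets as given above, while the mitochondrial share was 2.38 to 2.54% in null 1 to 3 and 2.36 to 2.69% in null 4 to 6.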

How the data were processed

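RNA-seq of 12 mouse prostate libraries was analysed from a matrix of log2 values that the authors deposited, 1 row per Ensembl gene. Per the submitters' processing notes the tools were CASAVA 1.8.2, TopHat, Cufflinks and DESeq, with builds mm9 and GRCm38.p2; the sources used here do not give the role of each tool, the annotation, the strand setting or the handling of reads with several matches. Per the labels' protocols, RNA was poly-A selected, prepared with an Illumina TruSeq kit and read at 100 bases. Read totals were recovered from the steps between values: between 12 and 13, 100% of values were whole reads within 0.1, and between 10 and 11 only 20.9 to 23.1%, so no count test was run. Symbols were found for 37607 of 39179 identifiers (96.0%).

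limma 3.58.1 in R 4.3.3 compared null with wild type, two-sided and with a mean-variance trend, after a filter of at least 4 in 6 libraries, and was tested on simulated data. Sets of near-identical libraries came from clustering all values, not from the labels; within sets the counts still differed by more than sampling noise (median chi-square over 273 genes 1.36 to 11.0, noise 0.455), so libraries were kept apart and set means were fitted as well. Nuclear copies came from blastn 2.17.0 and window matches against GENCODE M21 transcripts, since no genome was used. Named genes were all members, copies of at least 500 bases and 90% identity, and from each machinery list the 3 genes with the lowest limma p. Members and lists were chosen with earlier results of these data known. The gene under study is not reported here. p-values measure the spread between these libraries, which may be technical.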

Additional observations from a re-analysis of the deposited data

Results flagged for a closer look

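In 106 groups of 6 libraries (each member, the named nuclear genes and the class shares, in each genotype), 6 held a library far from the others by Dixon's criterion, which chance alone meets in about 1 of 20 groups. All 6 concern genes at or near the floor, none of them tested between genotypes. Null library 5 had 0.996 for mt-Tk, the lysine transfer RNA, with the other null libraries at 2.06 to 2.56. Wild-type library 3 had 3.41 for mt-Tk (others 1.07 to 1.93) and 2.96 for mt-Ty, the tyrosine transfer RNA (others 1.31 to 1.91). Wild-type library 4 had 1.16 for mt-Tr, the arginine transfer RNA (others 1.78 to 2.14). Wild-type library 5 had 2.41 for mt-Atp6 (others 3.59 to 3.91) and 1.35 for mt-Nd4l (others 2.21 to 2.70).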

How the results depend on the processing

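The differences named kept their direction and their side of the threshold in 205 of 260 recalculations for the tested members and in 282 of 311 for the nuclear genes. mt-Nd5 lost its call only over set means. The count of members called higher, 1, became 0 over set means, 4 with equal library totals, 2 with upper-quartile centring, 3 with quantile normalization, 2 without a filter, 4 with the length trend removed and 3 without wild type 1 to 3; leaving out single libraries gave 1 to 1. The count called lower, 2, became 0 over set means, with a random block, with equal totals, with totals without the 50 most abundant genes, with quantile normalization and with the length trend removed, and 1 with upper-quartile centring, without a filter, without null 1 to 3 and without wild type 4 to 6; single libraries gave 1 to 2. The genes were not the same throughout: mt-Nd4 was the 1 called with upper-quartile centring and without a filter, mt-Rnr2 (-0.33) without null 1 to 3 and mt-Tp (-0.33) without wild type 4 to 6, and without wild type 1 to 3 mt-Nd6 (-0.35) joined mt-Nd4 and mt-Rnr1. Over all genes, 5518 higher became 349 over set means, 2285 with a random block and 8611 with equal totals (single libraries 5051 to 5497), and 5152 lower became 313, 2767 and 2608 (4847 to 5140). Equal totals moved the median of all genes to 0.37 and upper-quartile centring to 0.13. The median of the tested protein genes became 0.27 with equal totals, 0.27 with quantile normalization and 0.32 with the length trend removed (single libraries -0.07 to -0.01).

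Signs turned with equal totals, quantile normalization and the length trend removed, in that order, for mt-Rnr1 (0.11, 0.037, 0.17), mt-Rnr2 (0.22, 0.22, 0.16), mt-Nd2 (0.27, 0.18, 0.32), mt-Nd6 (0.14, 0.072, 0.30) and mt-Cytb (0.16, 0.27, 0.19). mt-Rnr2 also turned without null 4 to 6 (0.14) and without wild type 1 to 3 (0.012), and mt-Nd2 with upper-quartile centring (0.028), without null 4 to 6 (0.033) and without wild type 1 to 3 (0.036). mt-Tp became -0.048 with quantile normalization, -0.33 (called lower) without wild type 4 to 6, -0.022 without wild-type library 4 and 0.62 (called higher) without wild type 1 to 3. mt-Nd1 was called with equal totals (0.39), quantile normalization (0.31) and the length trend removed (0.46). mt-Nd2 was called higher with equal totals (0.27). mt-Co1 was called with equal totals (0.75), upper-quartile centring (0.52), quantile normalization (1.39), no filter (0.44), the length trend removed (0.71) and without wild type 1 to 3 (0.80). The difference in share of the total, 0.65 percentage points, became 0.25 without the 50 nuclear genes of highest mean log2 value, 0.83 without wild type 1 to 3 and 0.47 without wild type 4 to 6 (single libraries 0.60 to 0.69). Of 13 protein genes, 7 had over 50% of windows copied at 2 mismatches, 6 with exact matches and 8 at 5 mismatches. The cause of these changes was not tested. No paired analysis was possible because the labels give no replicate numbers shared by the genotypes. The 27 members near the floor were not tested between genotypes, and what sets their level was not tested.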
